A study of Nematostella vectensis with 17 samples.

Results

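The 106 genes described here were expressed in control gastrulae of the sea anemone Nematostella vectensis and fell to 0.5 or less of that level with each of 2 morpholinos against brachyury. They were chosen by their measured levels among the 25729 gene models of the count table. The groups were whole embryos at the gastrula stage, injected with a control morpholino (4 libraries), the translation-blocking BraATGMO (6 libraries) or the splice-blocking BraSpliceMO (4 libraries). The 2 brachyury reagents were used at 500 µM, in a volume of 3 to 5 pl per injection. No dose or volume was given for the control morpholino, so an effect of dose and an effect of the target cannot be told apart. Embryos of all 3 groups were reared at 21 °C, polyA RNA was read as single ends of 50 bp, and the labels call the replicates biological. The labels state 6 replicates per group, and the 14 libraries listed were used here.

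Brachyury is a T-box transcription factor, known in vertebrates for its part in forming mesoderm and notochord. In the sea anemone it is expressed around the blastopore, the opening left by gastrulation, where Wnt ligands are also produced. A morpholino pairs with a chosen RNA and keeps the ribosome from starting or the spliceosome from joining exons, so that less of the protein is made. Because such a reagent can also act on other RNAs, it is common practice to compare reagents with different target sites.

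The study's 2 antisense sequences are shown because every comparison rests on them. They are given as the submitters state them, from 5′ to 3′, with 25 bases each. The capitals in the first mark the single CAT that it holds, at bases 12 to 14, whose complement is an ATG. The second also holds 1 CAT, at bases 16 to 18, left in lower case because that reagent is labelled as splice-blocking. Neither was matched to the brachyury transcript here.

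BraATGMO, translation-blocking: tcgtccgagtgCATgtccgactatg

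BraSpliceMO, splice-blocking: tccctggttgtcaaccataccgtcc

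The longest run of bases that the 2 sequences share is 5. Both hold 14 G or C bases of 25, or 56%. The labels state that their targets do not overlap. Both morpholino groups are compared with the same 4 control libraries.

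The rule used CPM, a gene's count per 1000000 counts of the library over all gene models. A mean control level of at least 2 CPM was found for 18398 genes. Of these, 558 had a mean translation level of at most 0.5 of the control mean, and 162 also had such a mean splice level. In 107 of them every morpholino library lay below every control library. The last condition, 1 CPM in at least 1 morpholino library, left 106 genes, or 0.412% of the gene models. Over the 18398 expressed genes, every morpholino library lay below every control library in 4.14%. The larger of a gene's 2 ratios to control was 0.4983 to 0.4985 for the 3 members nearest the limit, and 0.5006 to 0.5018 for the nearest 3 genes left out by it. The lowest control means were 2.09, 2.19 and 2.34 CPM.

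The table pairs no gene names with its identifiers, and a lookup in RefSeq's genes for assembly jaNemVect1.1 found 0 of them. Few identifiers are therefore given below, and no function is stated for any of them. Whether brachyury itself is among the members, and whether the embryos carry the markers of their labelled stage, was not analysed here. In whole embryos, fewer cells of a type and less RNA per cell cannot be told apart. Libraries held 15236154 to 80132810 counts in the control group, 12289649 to 32175949 with the translation morpholino and 14873801 to 16096648 with the splice morpholino. The lowest control count of a member was 20 and the lowest morpholino count was 2.

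In control embryos the members were mostly transcripts of low to middle abundance. Their control means ran from 2.09 to 157 CPM, with a median of 8.28, against a median of 18.1 CPM over all 18398 expressed genes. Levels of 2 to 5 CPM were held by 31 members (29.2%, against 18.4% of the expressed genes), and levels of 5 to 10 CPM by 30 (28.3%, against 15.8%). A further 35 lay between 10 and 50 CPM (33%, against 42.7%), and 10 lay at 50 CPM or more (9.43%, against 23.1%). A few abundant members carried much of the total: the 5 highest held 29.9% of the summed control level and the 10 highest 46.1%.

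With the brachyury morpholinos most members were reduced but still detected. All morpholino libraries held at least 1 CPM for 65 of the 106. A level under 1 CPM in every translation library was seen for 1 member, and in every splice library for 4. The median level was 2.93 CPM in the translation group and 2.87 CPM in the splice group. Summed over the members, the level in the control libraries was 2278, 2103, 1603 and 1634 CPM. With the translation morpholino the sum ran from 539 to 829 CPM over 6 libraries, and the 4 splice libraries held 726, 828, 738 and 623 CPM. The means were 1904 ± 338 (SD, n = 4), 704 ± 110 (SD, n = 6) and 729 ± 84.0 CPM (SD, n = 4). The lowest control sum was thus far above the highest morpholino sum, which the rule itself set, while the splice sums lay within the range of the translation sums.

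**Figure D1:**
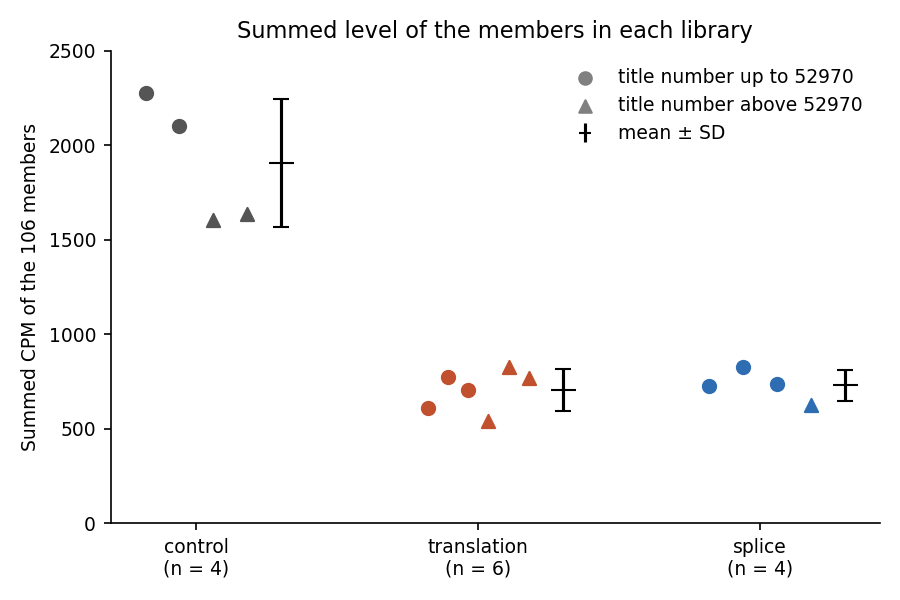
Summed CPM of the 106 members (y axis) in each library of the 3 groups (x axis), with circles for title numbers up to 52970, triangles for higher ones, and bars for the mean ± SD. The controls fall into a higher pair (2278 and 2103) and a lower pair (1603 and 1634), and the morpholino libraries lie between 539 and 829.

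The falls were of like size with both morpholinos, and moderate in most genes. The median fall was 2.69-fold in the translation group (quartiles 2.29 and 3.25) and 2.70-fold in the splice group (quartiles 2.31 and 3.39). Over all expressed genes the median ratio to control was 0.959 and 0.941. With the translation morpholino, 70 members lay 2- to 3-fold below control, 23 lay 3- to 4-fold, 11 lay 4- to 8-fold and 2 lay over 8-fold below. With the splice morpholino these numbers were 64, 28, 14 and 0. Taking the smaller of the 2 falls for each gene, 86 members lay 2- to 3-fold below control, 14 lay 3- to 4-fold and 6 lay 4- to 8-fold. These ratios share their controls and were used to choose the genes, so they describe the members and test nothing.

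The distance between the nearest single libraries cannot, by arithmetic, exceed that between means. The rule required every control library to lie above every morpholino library. The lowest control library was 1.40 times the highest morpholino library in the median member, and 1.03 to 3.63 times over all 106. It was at least 1.5 times as high in 36 members and at least 2 times in 6. The share of all expressed genes at these margins is not given, so the 2 counts only describe the members.

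**Figure D2:**
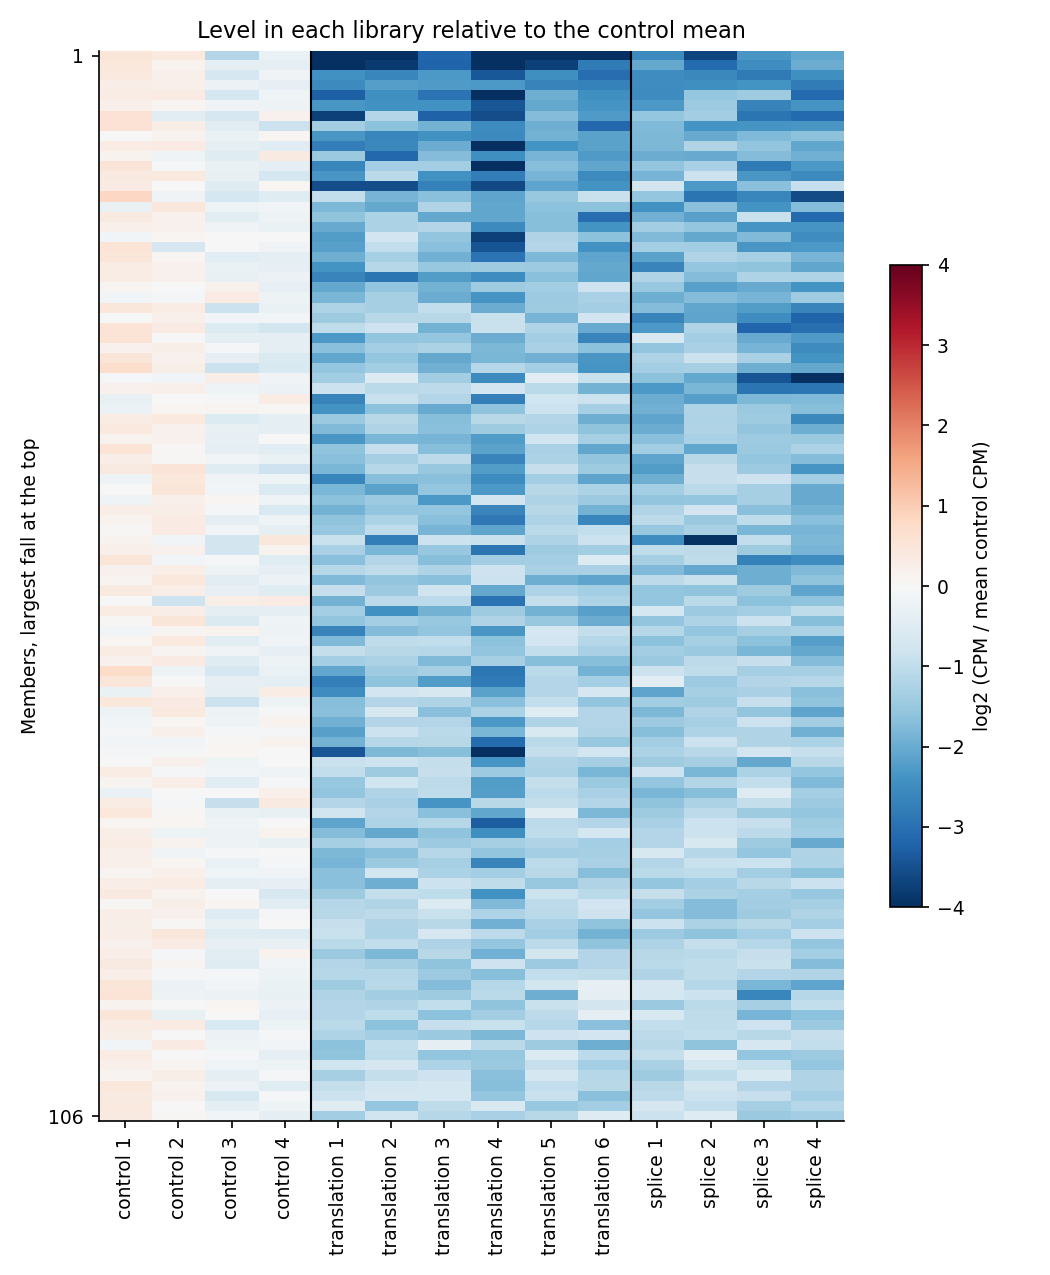
Level of each of the 106 members (rows, ordered by the mean of both ratios) in each of the 14 libraries (columns) as log2 of CPM over the control mean (largest falls at the top, and values past the end of the colour scale in its darkest blue). The control columns stand above all others, and translation library 4 holds the lowest translation value of 53 members.

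The edgeR fit across all 22109 genes tested included all 106 members. At an adjusted p under 0.05 it called 104 of them lower with the translation morpholino (10.1% of all genes tested were) and 103 lower with the splice morpholino (5.29%). In the authors' deposited table for translation against control, all 106 members had an adjusted p under 0.05 and a negative log2 fold change, from -0.92 to -4.20 with a median of -1.35, where 10.1% of the genes with a value were lower at that threshold. These counts follow from the rule, which used the same contrasts, and nothing is read from them.

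NVE8312 had the highest control level of the 106. It stood at 204, 178, 127 and 120 CPM in the control libraries. With the translation morpholino it ranged from 45.9 to 68.9 CPM around a median of 54.8, and the splice libraries held 39.6, 69.0, 52.3 and 40.8 CPM. The lowest control was therefore well above every morpholino library, and the morpholino groups overlapped. Its mean was 2.77-fold lower in the translation group and 3.12-fold lower in the splice group. The splice minus translation log2 difference was -0.15 ± 0.17 (SE), which did not pass the test (edgeR adjusted p = 0.61).

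NVE24009 had the lowest mean of both morpholino groups relative to control among members of at least 10 CPM, at 0.141. Its control libraries held 141, 116, 82.0 and 83.3 CPM. The translation libraries ranged from 5.28 to 15.4 CPM with a median of 7.74, and the splice libraries held 25.4, 12.6, 18.9 and 26.6 CPM. The fall was 12.0-fold in the translation group and 5.06-fold in the splice group. Of the 4 splice libraries, 3 lay above every translation library and the remaining one within their range. The level was 2.37 times as high with the splice morpholino, a log2 difference of 1.26 ± 0.29 (SE) that passed the test between the morpholinos (edgeR adjusted p = 0.011). One other member fell over 8-fold with the translation morpholino, from a control mean of 5.11 CPM to 0.278 (18.4-fold) and, with the splice morpholino, to 0.876 CPM (5.84-fold).

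The rule set a ceiling on both morpholino groups but used no difference between them, so the splice minus translation contrast was the measure left to test. It asks whether the genes lowered by both morpholinos were lowered to the same level. By edgeR, 7 members (6.60%) were called higher with the splice morpholino, where 6.49% of all genes tested were. Another 4 members (3.77%) were called lower with it, where 6.29% of all genes were. Neither count is read as a result about the members as a set: the first share is near the background, the second rests on 4 genes, and the ceiling limits how far apart the levels can lie. The median log2 difference over the members was 0.06, against 0.01 over all genes, with 59 members above 0 and 47 below. For the 95 members not called, the median SE of the log2 difference was 0.26. A 95% interval (a median of 2.12 SE to each side, from the t distribution with the degrees of freedom of the fit) lay within a 2-fold difference in either direction for 73 of these 95. For the rest of the 95 the interval reached past a 2-fold difference, so one of that size is not excluded by it.

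**Figure D3:**
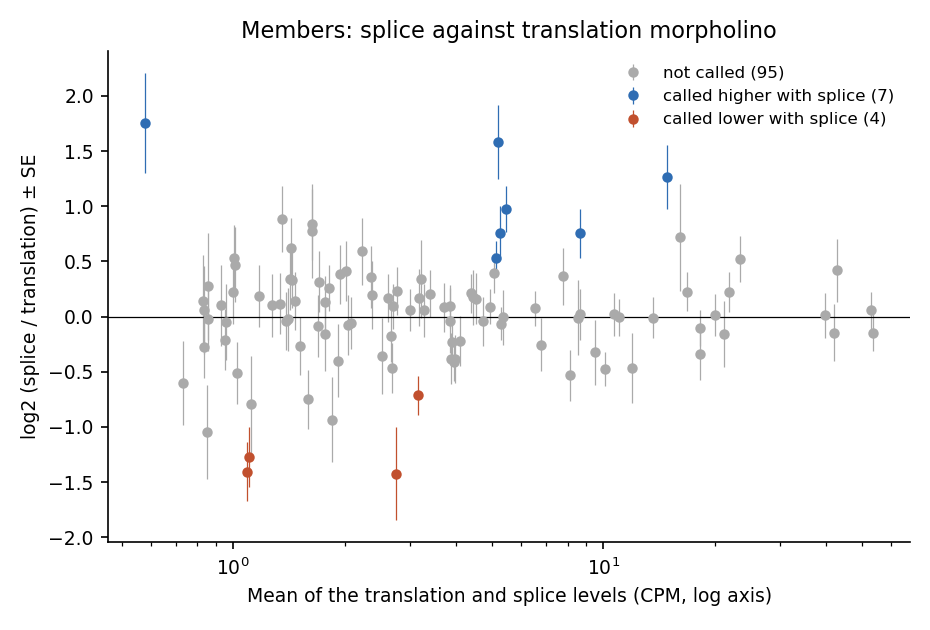
Log2 difference between the splice and translation morpholinos ± SE for the 106 members (y axis) against the mean of both levels in CPM (log x axis). The 7 members called higher with the splice morpholino are blue, the 4 called lower are red and the 95 not called are grey and centred near 0.

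The members called different were classed by the direction of the call, so the opposite order of their ratios follows from that choice. The 7 called higher with the splice morpholino had a median ratio to control of 0.203 in the translation and 0.396 in the splice group, and control means of 5.11 to 106 CPM. The 4 called lower had median ratios of 0.466 and 0.183, and control means of 3.34 to 8.64 CPM. All 11 genes passed the rule with both morpholinos, so the classes differ in which of them gave the deeper fall.

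NVE12530 had the smallest adjusted p of the 7 members called higher with the splice morpholino. It held 23.5, 18.6, 13.4 and 19.9 CPM in controls, 1.56 to 4.41 CPM (median 2.28) with the translation morpholino, and 11.3, 3.83, 5.91 and 9.99 CPM with the splice morpholino. Splice library 2 lay within the translation range and the other 3 above it. The fall was 7.18-fold with the translation and 2.43-fold with the splice morpholino, a log2 difference of 1.58 ± 0.33 (SE, edgeR adjusted p = 0.0063).

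NVE3397 had the same pattern with less difference between the morpholinos. Its control libraries held 22.1, 20.3, 14.7 and 15.6 CPM, the translation libraries 2.42 to 5.68 CPM (median 3.54) and the splice libraries 7.95, 5.45, 7.69 and 7.75 CPM. Splice library 2 was again the lowest of its group, below the highest translation library. Its level fell 4.87-fold and 2.52-fold, a log2 difference of 0.97 ± 0.21 (SE, edgeR adjusted p = 0.0075).

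NVE14920 had the smallest adjusted p of the 4 members called lower with the splice morpholino. It held 3.47, 4.07, 3.24 and 3.29 CPM in controls, 0.967 to 2.08 CPM (median 1.63) with the translation morpholino and 0.559, 0.807, 0.635 and 0.384 CPM with the splice morpholino. All splice libraries lay below all translation libraries. The fall was 2.22-fold with the translation and 5.90-fold with the splice morpholino, a log2 difference of -1.40 ± 0.27 (SE, edgeR adjusted p = 0.0036), and its lowest count in a library was 6.

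NVE25785 was close to it in level and pattern. Controls held 3.76, 3.81, 2.96 and 2.82 CPM, translation libraries 0.901 to 1.95 CPM (median 1.599) and splice libraries 0.683, 0.941, 0.445 and 0.448 CPM. Splice library 2 lay just above translation library 6, and the groups were otherwise apart. The falls were 2.12-fold and 5.30-fold, a log2 difference of -1.27 ± 0.27 (SE, edgeR adjusted p = 0.0071).

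**Figure D4:**
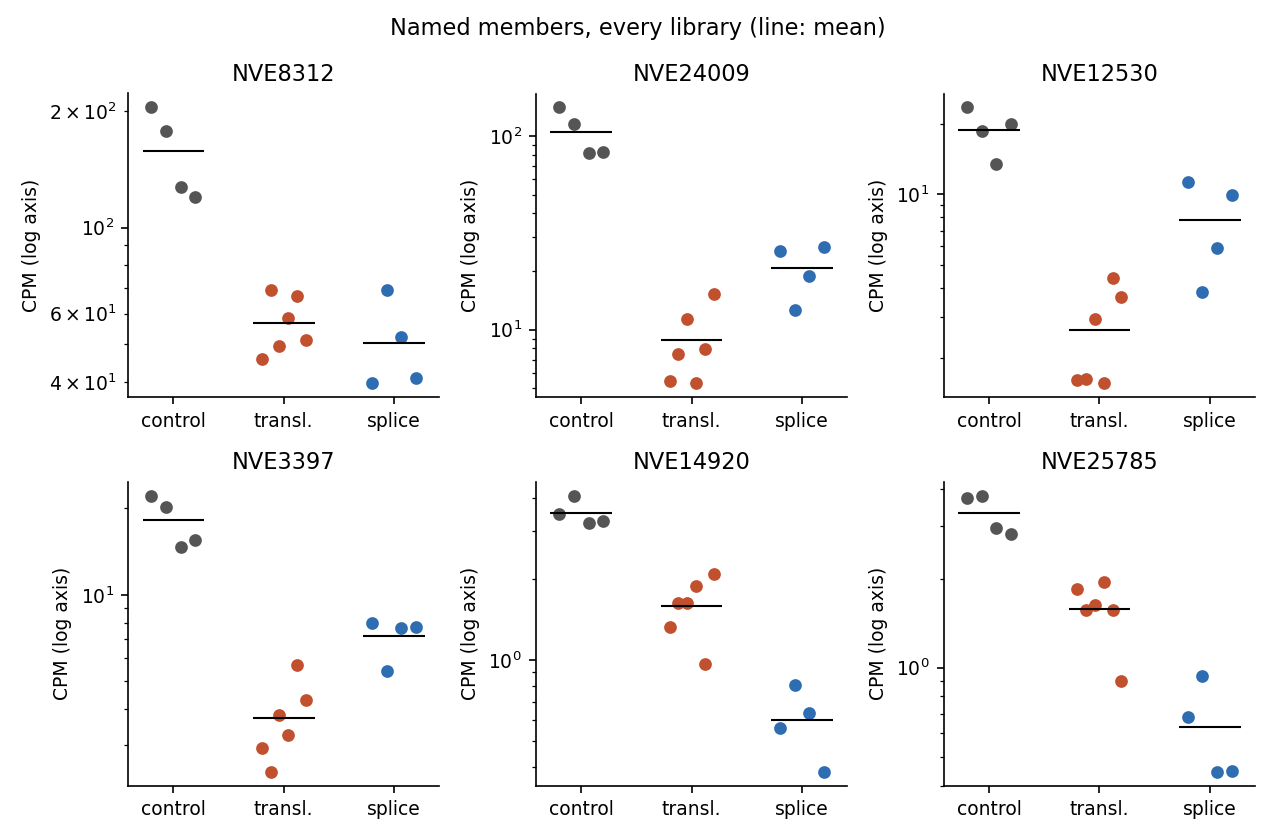
Levels of the 6 named members in CPM (log y axis) in every library of the 3 groups (x axis), with a line at each group's mean. Controls are highest in all 6, the splice libraries are mostly above the translation libraries in NVE24009, NVE12530 and NVE3397, and they are mostly below them in NVE14920 and NVE25785.

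Within the control group, most members were higher in the libraries with the lower title numbers. Control libraries 1 and 2 (title numbers up to 52970) were both above libraries 3 and 4 for 71 of the 106 members (67.0%), where 35% of the expressed genes had that order. The reverse order was seen for 4 members (3.77%), against 18.3%. In the median member, control library 1 was 1.20 times and library 2 1.11 times the control mean, and libraries 3 and 4 were 0.831 and 0.866 times. Over all expressed genes these values were 1.03, 1.02, 0.938 and 0.993. The rule used these same control values, and what the title numbers stand for is not given in the sources used here.

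Among the translation libraries, library 4 stood lowest. It held the lowest translation value of 53 members (50%), where it did so for 28.2% of the expressed genes, and its median over the members was 0.684 times the group mean, against 0.975 over all expressed genes. Translation library 5 was the highest for 33 members (31.1%, against 17.4%), with a median of 1.15 times the group mean. Among the splice libraries, library 4 was the lowest for 49 members (46.2%, against 37.7%) and library 2 the highest for 41 (38.7%, against 30.2%). Within a group, the members' values were also spread more widely than those of the median expressed gene. Their median coefficient of variation was 22.5% in the control, 31.5% in the translation and 24.9% in the splice libraries, against 13.8%, 17.1% and 17.8% over all expressed genes. The members have lower counts than most of those genes, and the part of depth in this spread was not tested.

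The falls were then read within the libraries of lower and of higher title number. These are called earlier and later here for the order of the numbers only, since no time or batch is given for them. The division at 52970 was known from previous work on these data. In the libraries with title numbers up to 52970 (2 control, 3 translation and 3 splice), 102 of the 106 members had both means at most 0.5 of control, with median ratios of 0.326 and 0.338. In those with higher numbers (2, 3 and 1), 67 had both, 75 the translation mean and 90 the splice mean at most 0.5 of control, with median ratios of 0.436 and 0.358. That all 106 were below control with both morpholinos in each part was fixed by the rule. The members were chosen on all these libraries together, so their counts and ratios describe them and test nothing. Over all expressed genes the median ratios were 0.942 and 0.935 in the earlier and 0.975 and 0.898 in the later libraries.

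To read the fall in libraries that did not choose the genes, the rule was applied to the earlier libraries by themselves. It took 277 genes, of which 102 are among the 106, with median ratios to control of 0.381 for the translation and 0.393 for the splice morpholino. In the later libraries the same 277 genes had median ratios of 0.538 and 0.407. There 272 of them were below control with both morpholinos, where 37.9% of the 18447 genes at the same control floor were. Both means were at most 0.5 of control for 86 of the 277, where 0.716% of those genes met this, and every morpholino library lay below every control library for 199, where 14.2% did. The translation mean was at most 0.5 of control for 115 and the splice mean for 191. Both later ratios share the same 2 control libraries, and the splice mean is that of 1 library, so these are values with no test. The opposite reading gave other values. The rule applied to the later libraries by themselves took 116 genes, 65 of them among the 106, with median ratios of 0.432 for the translation and 0.359 for the splice morpholino. In the earlier libraries these 116 genes had median ratios of 0.385 and 0.414. All 116 were below control with both morpholinos there, where 46.8% of 18256 genes were, and 77 had both means at most 0.5 of control, where 1.4% did. The translation ratio of the chosen genes was lower in the earlier libraries in both readings, but in the first reading the choice itself favours that order. The splice ratio was lower in whichever libraries chose the genes (0.393 against 0.407, and 0.359 against 0.414).

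**Figure D5:**
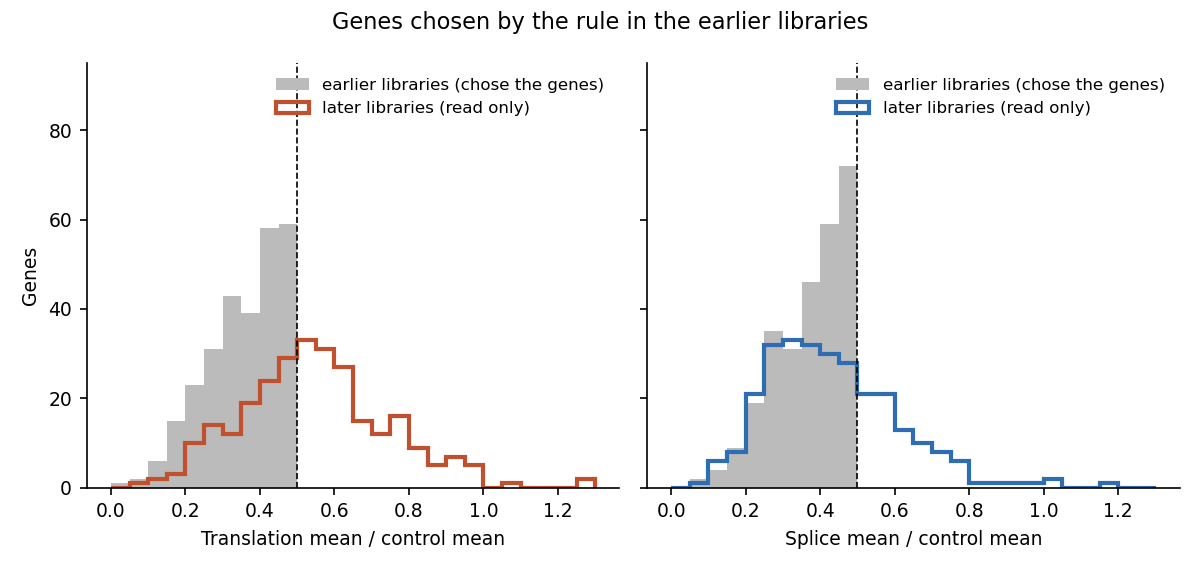
Number of genes (y axis) by the ratio of the translation (left) or splice (right) mean to the control mean (x axis), for the 277 genes chosen in the earlier libraries (grey) and read in the later ones (outline), with a dashed line at 0.5. In the later libraries the translation ratios centre at 0.538 and the splice ratios at 0.407.

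The differences between the morpholinos kept their direction in both sets of libraries. All 7 members called higher with the splice morpholino had the higher splice mean in the earlier and in the later libraries, at a median of 2.30 and 1.76 times the translation mean. All 4 called lower had the lower splice mean in both, at 0.445 and 0.268 times. The later splice mean is that of 1 library. Those genes were selected on all the libraries together, so the shared direction describes them and tests nothing.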

How the data were processed

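Raw counts per gene model and library were deposited by the authors in 1 table, from which 92 spike-in rows (sum 0) were dropped. Tools listed in the submitters' processing notes, with no role, include STAR 2.5.3a (an aligner), Subread 1.6.2 with featureCounts (a read counter), cutadapt 1.8.1 and DESeq2 1.6.0. Annotation and strand setting are not given in the sources used here. How reads of overlapping genes and near-identical copies were assigned is therefore not known here. The log2 fold change and adjusted p-value columns deposited by the authors match translation against control. No per-sample column was left without a sample (0). The ChIP-seq peak lists were not used here.

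The members and lists were chosen with earlier results of these data known. CPM values are scaled by library size. Genes were tested in 1 fit of 14 libraries with 3 group means and 11 residual degrees of freedom, with edgeR 4.0.16 (quasi-likelihood, R 4.3.3), after filterByExpr (22109 genes) and TMM scaling, two-sided, with Benjamini-Hochberg adjustment over all genes tested. SE is the absolute log2 difference over the square root of F. The code was tested on simulated data. Alternatives used DESeq2 1.42.0, limma 3.58.1 (voom), other scalings and filters, a title number covariate, a term for earlier or later libraries, and 1 library left out. The 27 pairs of libraries within groups differed by 7.79 to 50.7 chi-square per degree of freedom, beyond sampling noise. Counts carry no molecular identifiers. The named identifiers are the member with the highest control mean, the member of at least 10 CPM with the lowest ratio to control, and the 2 with the smallest adjusted p in each direction between the morpholinos. Marker and pathway lists, planned for the case that identifiers could be paired with names, were not used.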

Additional observations from a re-analysis of the deposited data

Results flagged for a closer look

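Of 24 sets of values examined for a library far from the others of its group, 4 held one, where chance gives about 1 in 20, or 1.20 of 24. By log10 of its total count, control library 1 was high, at 7.90 where the next control held 7.28 (gap over range 0.863). Translation library 6 did so too, at 7.51 where the next held 7.24 (0.639). For NVE25785, translation library 6 was low at 0.901 CPM, where the next held 1.57 CPM (0.632). For NVE3397, splice library 2 was low at 5.45 CPM, where the next held 7.69 CPM (0.894). Over all 106 members, a library stood apart in 6 of the control, 5 of the translation and 4 of the splice sets (5.66%, 4.72% and 3.77%), against 4.76%, 6.83% and 4.89% of the expressed genes.

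The response to the morpholinos differed by the direct test for 5 named members. The splice minus translation log2 difference was 1.26 for NVE24009 (edgeR adjusted p = 0.011), 1.58 for NVE12530 (edgeR adjusted p = 0.0063), 0.974 for NVE3397 (0.0075), -1.40 for NVE14920 (0.0036) and -1.27 for NVE25785 (0.0071). All but NVE24009 were named for having the smallest adjusted p of this same contrast, so that they pass it follows from the choice.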

How the results depend on the processing

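The number of genes that met the rule was 88 with TMM-scaled CPM and 87 with DESeq2 size factors, of which 87 and 86 were among the 106. The median log2 ratio of all expressed genes to control was -0.06 (translation) and -0.09 (splice) by library size and -0.01 for both by TMM. The number was 109 with a control floor of 1 CPM and 75 with one of 5 CPM. It moved most with the limit on the fall, to 333 at a ratio of 0.667 and 20 at 0.333, and was 161 if groups may overlap. The earlier libraries gave 277 and the later 116, with 102 and 65 of the members. Leaving out 1 library gave 94 to 172, the highest without control library 3, and 74 members were kept whichever of the 14 was left out.

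Members called higher with the splice morpholino numbered 4 by limma-voom, 3 with the translation and splice libraries only, 3 with title numbers up to 52970, and 3 to 6 with 1 library left out (3 without splice library 4, 4 without translation library 2). Those called lower numbered 7 with the title number covariate, 1 with title numbers up to 52970, and 3 to 5 with 1 library left out. Shares over all genes tested are not given for the alternative fits, so none of their counts is read as a result about the members. The cause was not tested. The median log2 difference stayed between 0.03 and 0.06 under the scalings tried. Members called below control ran from 98 to 106 (translation) and 84 to 104 (splice) over the alternatives, the 84 without control library 1. Each of the 6 named members kept its direction and its side of the threshold in the fits tried, except NVE25785. That gene missed the threshold with title numbers up to 52970 (-1.26, edgeR adjusted p = 0.05, with 0.0018 to 0.05 over its alternatives). Between the morpholinos the largest edgeR adjusted p was 0.049 for NVE24009, 0.046 for NVE14920, 0.038 for NVE12530 and 0.031 for NVE3397. The fits reuse libraries that chose these genes, so they describe them and test nothing. No paired analysis was possible because the labels give no replicate numbers shared between groups, and neighbouring title numbers were not taken as pairs. A term for earlier or later libraries, chosen after seeing the data, gave 6 members higher and 6 lower with the splice morpholino.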
